A study of Mus musculus with 15 samples.

Results

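The 3 arrays of untreated control MEFs (Mouse Embryonic Fibroblasts) were described on their own, out of 15 arrays in the series, and were chosen by their label alone. The cells were of the Balb/c 3T3 line, clone A31, so all values come from 1 immortalised clone grown in DMEM Glutamax with FCS, penicillin and streptomycin. The remaining 12 arrays held the same line treated by TGFb1, TNFa, IL-1b or IL-6 with its soluble receptor, 3 arrays each. They were used to estimate a difference between the slides and, in 1 alternative setting, to choose the probe that represents a gene. They also entered the alternative with quantile normalization, which was run over all 15 arrays. The labels and the study's methods give 24 or 72 h of culture without saying which applies to an array, while the study describes its arrays as made after 24 h, on 3 biological replicas from 3 independent experiments. The controls are called control 1, control 6 and control 11, after the number that opens each label. The labels do not state which array belongs to which experiment.

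Fibroblasts are the cells that build and remodel the extracellular matrix of connective tissue. They secrete procollagens, which are hydroxylated, trimmed and cross-linked into fibrils, and they hold on to the matrix through integrins. They also carry receptors for inflammatory cytokines such as TNFa, IL-1b and IL-6, and for TGFb1, which drives matrix production and a contractile, myofibroblast state.

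Each array gave a brightness per probe, written here as log2 brightness minus the 75th percentile of that array, so that 0 is the 75th percentile and 1 unit is a doubling. A gene was called detected when at least 1 of its probes was well above background on all 3 controls, partly detected when this held on some arrays, and not detected when no probe was well above background on any of them. In a culture measured in bulk, fewer cells with a transcript and less transcript per cell cannot be told apart. A probe's brightness also depends on its own sequence. For the 4931 genes with several detected probes, the brightest and the dimmest probe lay a median of 2.72 log2 units apart (10th to 90th percentile 0.59 to 5.47), so the ranks are ranks of probes and carry no order between genes that lie close. No spot on the controls was saturated, and with 3 arrays their number limits the precision of each mean.

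Of 23451 named genes, 12757 (54.4%) were detected in the untreated MEFs, 1661 (7.08%) partly and 9033 (38.5%) not. The 54.4% covers named genes of all kinds and is the share to set beside the count of each list below. Probe by probe, 26843 of 56567 (47.5%) were well above background on all 3 controls and 24429 on none. On single arrays the share was 52.5% for control 1, 54.8% for control 6 and 48.3% for control 11. Detected genes had a median brightness of 1.11, the dimmest of them lay at -5.11, and the brightest gene that was not detected lay at -5.22. Detection differed by the kind of gene. It reached 12082 of 20090 protein-coding genes (60.1%) and 528 of 3035 long non-coding RNAs (17.4%). For a list of protein-coding genes the 60.1% is therefore the closer share.

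**Figure D1:**
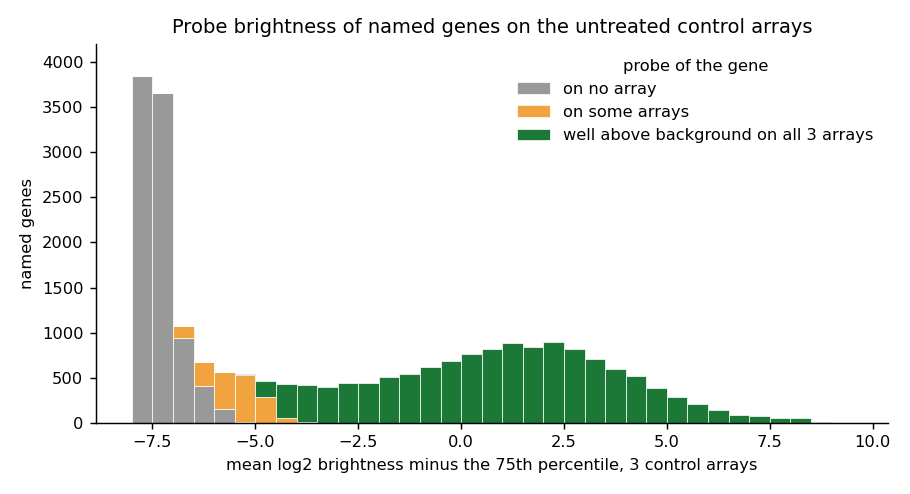
Histogram of 23451 named genes by mean log2 brightness minus the 75th percentile over the 3 control arrays (x axis, bins of 0.5), with the number of genes on the y axis and colour for detection. Genes that were not detected pile up between -8 and -7, whereas detected genes spread from -5.11 to 9.08.

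Gene families gave a reference at both ends. Among olfactory receptors, which belong to the nasal epithelium, 33 of 1078 (3.06%) were detected, with 7 of 258 vomeronasal receptors and 1 of 43 beta-defensins. By contrast, 81 of 84 cytosolic ribosomal proteins, 78 of 78 mitochondrial ribosomal proteins, 36 of 36 subunits of respiratory complex I and 37 of 39 proteasome subunits were detected. These families were picked from gene names after values had been seen.

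The brightest probe in the untreated MEFs was that of *S100a4*, also called fibroblast-specific protein, a calcium-binding protein. Its log2 brightness was 8.91, 9.11 and 9.20 on controls 1, 6 and 11, and the arrays lay close together. Near it stood *Tuba1b*, an alpha-tubulin (9.04, 8.78 and 9.23), and *S100a6*, another calcium-binding protein of the same family (8.86, 8.95 and 9.22). Genes of protein synthesis filled much of the rest: 10 cytosolic ribosomal proteins were among the 25 brightest genes and 70 among the 250 brightest. *Rpl41* led them with 8.78, 8.82 and 9.14. The 25 brightest also held the cytoskeletal *Actb* (8.68 ± 0.16, SD, n = 3), the cyclophilin *Ppia* (8.92 ± 0.19), the glycolytic enzyme *Pgk1* (8.61 ± 0.22) and galectin-1, *Lgals1* (8.50 ± 0.20), all on the same log2 scale. The H2A histone genes *H2ac12* and *H2ac1* were there as well, and 11 of 17 H2A genes were among the 250 brightest. Such histone and ribosomal genes have near-identical copies that can share a probe, so their values are uncertain for any single copy.

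Also among the 25 were *Rps18*, *Rpl37a*, *Fau*, *Rpl10*, *Rps10*, *Gm5523*, *Exosc2*, *Kctd14*, *Rps26*, *Rpl37rt*, *Rn4.5s*, *Elk1*, *Rps27a* and *Rplp1*. Not all of these places were shared by a second probe of the gene. *Elk1*, an ETS transcription factor, had a probe at 8.39 ± 0.18 and another at -2.54, and *Rps27a* had probes at 8.38 and -3.87, all well above background on the 3 arrays. Of 5991 detected genes with several probes, 4635 were detected by every probe and 821 had a probe that was above background on no array.

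Some letters were counted in the promoter of every gene: CG, the pair of bases that is methylated in vertebrate DNA, and TATAAA, the core of the TATA box. In the 250 bases before the start, the median number of CG was 15 in 10185 detected genes (quartiles 8 and 22), 5 in 1243 partly detected genes and 3 in 7057 that were not detected (quartiles 1 and 8), beside 9 over the 18485 named genes with a promoter and 6 over all 32851 promoters of the table. TATAAA, searched from 45 to 16 bases before the start on the gene's strand, was held by 1.51% of detected genes, 4.42% of those not detected, 2.81% of the 18485 genes and 2.14% of all promoters. The 2 motifs share no letter and cannot overlap. With the 18485 genes ranked by brightness and cut into 10 equal bins, the median CG number was 16 in the brightest bin and 3 in the dimmest, and the share with TATAAA was 2.38% and 5.08%. That share did not climb steadily from the brightest bin, since the next 4 bins held 0.433%, 0.811%, 1.19% and 1.84%.

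The promoters below (RefSeq, GRCm38.p6, 5′ to 3′ on the gene's strand, 250 bases ending at the base before the start) show both kinds among genes the results turn on: the brightest gene, 2 bright matrix genes, 2 receptor chains of the cytokines, and a cytokine gene that was not detected. Capitals mark CG and, in *S100a4* and *Il1b*, TATAAA.
S100a4, chr3:90603520-90603769, plus strand: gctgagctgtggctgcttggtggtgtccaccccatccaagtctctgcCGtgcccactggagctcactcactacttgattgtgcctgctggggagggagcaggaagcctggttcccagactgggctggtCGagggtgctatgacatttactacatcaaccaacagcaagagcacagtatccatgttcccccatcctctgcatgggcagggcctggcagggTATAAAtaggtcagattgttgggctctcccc
Sparc, chr11:55420081-55420330, minus strand: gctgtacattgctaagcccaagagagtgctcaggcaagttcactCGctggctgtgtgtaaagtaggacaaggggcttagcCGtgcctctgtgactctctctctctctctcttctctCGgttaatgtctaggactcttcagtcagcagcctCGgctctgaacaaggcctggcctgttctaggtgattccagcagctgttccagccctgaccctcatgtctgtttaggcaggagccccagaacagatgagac
Col1a2, chr6:4505368-4505617, plus strand: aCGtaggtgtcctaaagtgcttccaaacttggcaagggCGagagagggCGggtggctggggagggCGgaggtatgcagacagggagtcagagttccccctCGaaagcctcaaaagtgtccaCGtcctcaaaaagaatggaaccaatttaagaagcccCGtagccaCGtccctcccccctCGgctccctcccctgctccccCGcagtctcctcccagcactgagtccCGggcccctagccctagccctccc
Tnfrsf1a, chr6:125349473-125349722, plus strand: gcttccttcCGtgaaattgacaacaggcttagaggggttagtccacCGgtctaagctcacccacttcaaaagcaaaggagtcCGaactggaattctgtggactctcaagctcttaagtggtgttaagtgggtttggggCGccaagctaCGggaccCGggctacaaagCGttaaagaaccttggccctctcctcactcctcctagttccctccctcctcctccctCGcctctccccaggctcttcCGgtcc
Il6st, chr13:112463820-112464069, plus strand: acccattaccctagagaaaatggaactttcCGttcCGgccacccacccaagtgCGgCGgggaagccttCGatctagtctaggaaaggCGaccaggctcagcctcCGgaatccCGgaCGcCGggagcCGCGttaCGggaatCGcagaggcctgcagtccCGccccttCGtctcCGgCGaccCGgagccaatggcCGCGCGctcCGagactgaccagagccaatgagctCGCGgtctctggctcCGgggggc
Il1b, chr2:129371140-129371389, minus strand: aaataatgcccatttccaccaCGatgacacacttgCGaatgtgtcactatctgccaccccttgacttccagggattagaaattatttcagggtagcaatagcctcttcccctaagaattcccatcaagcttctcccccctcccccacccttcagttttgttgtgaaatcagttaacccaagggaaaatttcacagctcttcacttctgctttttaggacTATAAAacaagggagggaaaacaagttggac
*S100a4* held 2 CG and *Il1b* 2, and in both TATAAA began 31 bases before the start. The receptor genes *Il6st* and *Tnfrsf1a* held 26 and 9 CG and no TATAAA in that stretch, as did *Col1a2* with 11 and *Sparc* with 4. The rank therefore did not follow these letters gene by gene: *S100a4* and *Il1b*, with the same counts, were at rank 1 and among the genes not detected.

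Matrix genes were widely expressed at baseline. Of 138 genes in 9 lists of collagens, collagen enzymes, glycoproteins and proteoglycans, 97 (70.3%) were detected, 8 partly and 33 not, beside 54.4% over all named genes.

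The fibrillar collagens, which form the banded fibrils of connective tissue, gave some of the strongest signals. *Col1a2*, a chain of type I collagen, was at 8.00, 8.22 and 8.10 on controls 1, 6 and 11 (rank 50). *Col1a1*, the other chain of the same collagen, was at 6.09, 6.77 and 6.62, and *Col3a1*, of type III collagen, at 5.51, 6.57 and 5.87. All 3 genes were bright on every array, and in each of them control 1 was the lowest and control 6 the highest. *Col5a1* (4.37 ± 0.33), *Col5a3* (0.84 ± 0.69) and *Col5a2* (-0.39 ± 0.49) of type V collagen, which is built into type I fibrils, were detected too, though 1 of 2 *Col5a3* probes was above background on a single array. *Col24a1* and *Col27a1* were not detected, and *Col11a2* was partly. In all, 8 of 11 fibrillar collagens were detected. Type II collagen, the collagen of cartilage, broke the pattern, since *Col2a1* read -4.18, 1.52 and -3.53, far brighter on control 6 than on the other arrays.

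Of 12 basement membrane and network collagens, 6 were detected and 6 not, which is 50%, close to the 54.4% of all named genes. *Col7a1*, the anchoring fibril collagen of the dermis, was at 4.61, 4.41 and 4.80, *Col18a1*, whose cleavage gives endostatin, at 4.62, 4.55 and 4.58, and *Col8a1*, of a short-chain network, at 4.34, 4.71 and 4.39. The ubiquitous type IV chains *Col4a1* (3.17 ± 0.32) and *Col4a2* (2.63 ± 0.25) were detected together with *Col4a5* (1.76 ± 0.34). The tissue-restricted chains *Col4a3*, *Col4a4* and *Col4a6*, the hypertrophic cartilage collagen *Col10a1*, and *Col8a2* and *Col15a1* were not. In type VI collagen, which forms beaded filaments around cells, *Col6a1* (7.01, 7.42 and 7.34), *Col6a2* (4.11 ± 0.11) and *Col6a3* (5.30 ± 0.25) were bright, whereas *Col6a5* and *Col6a6* were not detected. *Col16a1*, a fibril-associated collagen, was at 5.58, 5.95 and 6.06. The list of beaded-filament, fibril-associated and transmembrane collagens had 9 of 20 members detected (45%), 2 partly and 9 not.

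The enzymes and chaperones that turn procollagen into fibrils were nearly complete, with 22 of 25 detected. *Pcolce*, an enhancer of C-propeptide removal, was the brightest at 7.09, 7.16 and 7.41. *Serpinh1*, the collagen chaperone HSP47, was at 5.32, 5.73 and 5.64, and *Lox*, a lysyl oxidase that cross-links collagen, at 5.13, 5.75 and 5.27. Their SDs were 0.17, 0.22 and 0.32, beside a median of 0.21 over genes well above background on all controls. In the slide test given below, 13 of 23 tested members of this list differed by slide, beside 35.5% of all probes. *Lox* was among them (0.46 ± 0.12, SE, limma q = 0.0097). Detected members also covered prolyl hydroxylation (*P4hb*, *P4ha1*, *P4ha2*, *P4ha3*), lysyl hydroxylation (*Plod1*, *Plod2*, *Plod3*), N-propeptide removal (*Adamts2*, *Adamts14*) and C-propeptide removal (*Bmp1*). *P3h2* and *Adamts3* were not detected, and *Tll1* was partly.

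Fibronectin and the proteins of elastic fibres had 16 of 18 members detected. *Fbln2* was at 7.38, 7.14 and 7.51, and fibronectin itself, *Fn1*, at 6.84, 6.85 and 6.42 for its brightest probe. The other 2 probes of *Fn1* lay at 2.71 and 1.16, also above background on all 3 arrays. *Efemp2*, needed for elastic fibre assembly, was at 6.31, 6.36 and 6.71, and fibrillin-1, *Fbn1*, at 3.40, 3.32 and 3.40. These scaffold and assembly genes were above background on every array, but elastin was not: neither of the 2 *Eln* probes was well above background on any control. *Fbn2* was partly detected.

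Matricellular proteins, which sit in the matrix and modulate cell behaviour without a structural role, had 15 of 16 members detected. *Sparc* (osteonectin) read 8.09, 8.29 and 8.44 and ranked 35 of all genes. *Spp1* (osteopontin) was at 6.87, 6.82 and 6.41, *Ccn4* at 5.15, 5.37 and 5.60 and *Thbs1*, an activator of latent TGFb, at 5.15, 5.37 and 5.08. *Ccn2*, the connective tissue growth factor, was at 1.90, 0.74 and 2.15, lower on control 6 than on the others, and *Postn* (periostin) at 1.63, 2.90 and 2.14, higher on control 6. *Tnc* was detected at a low brightness (-1.33 ± 0.35), and *Thbs4* was not detected.

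Among small leucine-rich proteoglycans, which decorate collagen fibrils, 9 of 13 were detected. Decorin, *Dcn*, was at 4.82, 5.86 and 4.53 and biglycan, *Bgn*, at 4.09, 3.64 and 3.86. *Lum* (lumican) spread widely, at -0.20, 1.30 and -1.11, and so did *Aspn* (-2.92, -0.70 and -2.09), both with control 6 the highest. Of large proteoglycans and hyaluronan synthases, 4 of 10 were detected: versican *Vcan* (3.84 ± 0.36), perlecan *Hspg2* (3.59 ± 0.19), agrin *Agrn* (2.70 ± 0.17, 1 of 2 probes) and the hyaluronan synthase *Has2* (1.14 ± 0.50). Aggrecan, *Acan*, the large proteoglycan of cartilage, was not. In basement membrane glycoproteins, *Lamb1* (5.19, 5.02 and 5.13), *Nid1* (4.20, 4.27 and 4.15) and *Lamc1* (3.42, 3.57 and 3.56) were detected with the alpha chains *Lama4* (2.91 ± 0.21) and *Lama5* (0.18 ± 0.50). *Lama1*, *Lama2*, *Lama3*, *Lamb3* and *Lamc3* were not, leaving 8 of 13.

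**Figure D2:**
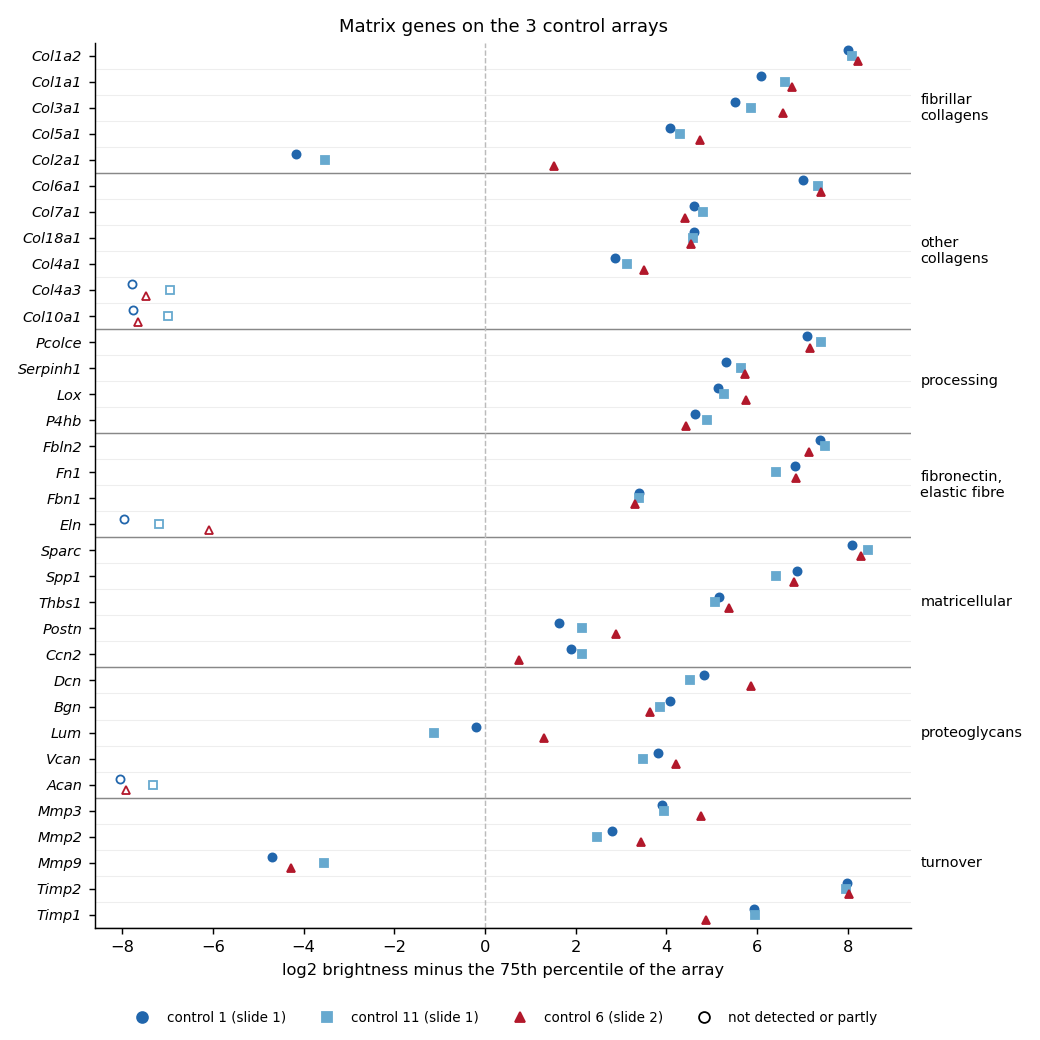
Log2 brightness minus the 75th percentile (x axis) of matrix and matrix turnover genes (y axis) on controls 1, 6 and 11, 1 symbol per array, filled where the gene was detected and open where it was not or only partly. *Col1a2*, *Sparc* and *Timp2* lie near 8 on all 3 arrays, *Col2a1* is split between control 6 and the others, and *Eln*, *Acan*, *Col4a3* and *Col10a1* lie at the floor.

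Of 23 matrix metalloproteinases, enzymes that degrade matrix, 13 were detected, 3 partly and 7 not, which is 56.5% beside 54.4% of all named genes. *Mmp3* (stromelysin-1) was the brightest at 3.90, 4.77 and 3.96, followed by *Mmp19* (2.95, 3.92 and 3.17), *Mmp11* (3.15, 2.77 and 3.03) and the gelatinase *Mmp2* (2.80, 3.44 and 2.48). In *Mmp3*, *Mmp19* and *Mmp2* control 6 was above both other arrays. The membrane-bound activator of pro-MMP2, *Mmp14*, was at 0.48 ± 0.19, and the collagenase *Mmp13* at -3.06 ± 0.09. *Mmp9*, the other gelatinase, was detected by 1 of 2 probes at a low brightness (-4.18 ± 0.58). Inhibitors of these enzymes were all detected, 5 of 5, with *Timp2* at 7.99, 8.03 and 7.96 and *Timp1* at 5.93, 4.88 and 5.95. *Timp2* hardly varied between arrays, while *Timp1* was lower on control 6.

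Integrins are pairs of an alpha and a beta chain that bind cells to the matrix. Of 26 subunits, 17 were detected (65.4%, beside 54.4% of all named genes), 3 partly and 6 not. With every probe of a gene required, 11 of 26 were detected, beside 11401 of 23451 named genes, so the higher share rests on single probes. The common beta chain *Itgb1* was at 5.24, 5.23 and 5.04, *Itgav*, of the vitronectin receptors that also release TGFb from its latent form, at 4.67, 4.60 and 4.64, and *Itgb5* at 4.28, 3.98 and 4.33. All 3 varied little across arrays. The fibronectin receptor chain *Itga5* (0.94 ± 0.44) and the collagen receptor chains *Itga11* (-1.16 ± 0.18) and *Itga1* (-2.09 ± 0.36) were detected at lower brightness. *Itgam*, a myeloid chain, was bright on 1 of its 2 probes, and is described with the leukocyte genes. *Itga4*, *Itga8*, *Itga2*, *Itgb6*, *Itgb8* and *Itgax* were not detected. Of 15 other matrix receptors 12 were detected, among them the collagen-binding kinase *Ddr2* (4.51 ± 0.05), dystroglycan *Dag1* (4.34 ± 0.10) and the hyaluronan receptor *Cd44* (3.47 ± 0.17).

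The receptors of all 4 cytokines used in the study were detected in untreated MEFs. Over the 4 lists of receptors, adaptors and transducers, 51 of 56 genes (91.1%) were detected, 3 partly and 2 not, beside 54.4% of all named genes. TNFa binds TNFR1, encoded by *Tnfrsf1a* and found on most cells, and TNFR2, encoded by *Tnfrsf1b* and more restricted. *Tnfrsf1a* was at 4.58, 5.04 and 4.70, with a second probe at a mean of 1.30, and *Tnfrsf1b* at 0.77, 0.72 and 0.92. The signalling chain downstream of them was above background throughout, with 15 of 15 listed genes detected. They included the adaptors *Tradd* (3.27 ± 0.15) and *Traf2* (4.05 ± 0.22), the kinase *Ripk1* (1.17 ± 0.20), the NF-kB subunits *Rela* (5.20 ± 0.15) and *Nfkb1* (-0.88 ± 0.25), and the inhibitor *Nfkbia* (3.66 ± 0.20).

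TGFb1 binds the type II receptor, which then recruits and phosphorylates the type I receptor, and betaglycan presents the ligand. *Tgfbr2* was at 2.87, 3.16 and 3.04, *Tgfbr1* at -0.02, 0.43 and 0.24 and betaglycan, *Tgfbr3*, at 3.11, 3.34 and 2.99. Each chain was above background on every array, with a small spread. The other *Tgfbr1* probe lay at a mean of -2.40, also above background on all 3 arrays. All 13 listed genes were detected, with the transducers *Smad3* (2.55 ± 0.11), *Smad2* (0.85 ± 0.26) and *Smad4* (3.43 ± 0.26) and the feedback inhibitor *Smad7* (-0.26, 0.38 and -0.52). The endothelial-type receptor chains *Acvrl1* (-3.30 ± 0.47, 1 of 2 probes) and *Eng* (-3.65 ± 0.28) were detected but dim.

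IL-1b signals through IL-1R1 and its accessory protein, while IL-1R2 is a decoy and IL-1RN an antagonist. *Il1r1* was at 2.13, 2.17 and 2.03 and *Il1rap* at 1.36, 2.21 and 1.48 with 2 of 3 probes detected, the former with hardly any spread. The decoy *Il1r2* was partly detected (-6.81, -5.40 and -5.58) and the antagonist *Il1rn* was not. The adaptor *Myd88* (2.75 ± 0.18) and the kinases *Irak1* (1.89 ± 0.13), *Irak2* (2.67 ± 0.21) and *Irak4* (-1.56 ± 0.17) were detected. The brightest member of this family was no IL-1b receptor but *Il1rl1*, the IL-33 receptor ST2, at 6.58, 5.01 and 6.50 (rank 419). It was well above background with each of 3 probes, and lowest on control 6 with each of them. In all, 10 of 13 genes of the IL-1 list were detected.

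IL-6 binds IL-6R, which exists on few cell types and as a soluble form, and the complex signals through gp130, the chain shared by the whole IL-6 family. gp130, *Il6st*, was at 2.89, 3.01 and 3.04, with a second probe at a mean of -0.02. The receptor itself, *Il6ra*, was at 1.61, 2.55 and 1.85. A second *Il6ra* probe was also above background on all 3 arrays, at a mean of -3.15, so both probes called the gene detected while their brightness differed widely. Partner chains for other family members were bright: *Il11ra1*, of the IL-11 receptor, at 4.54, 5.05 and 4.93, *Osmr*, of the oncostatin M receptor, at 4.22, 4.31 and 4.49, and *Lifr* at 0.37, 1.14 and 0.85. *Cntfr* was not detected and *Il27ra* was partly. *Jak1* (4.10 ± 0.12), *Jak2* (0.57 ± 0.21), *Tyk2* (-0.52 ± 0.13) and *Stat3* (3.83 ± 0.12) were detected, as were the feedback inhibitors *Socs3* (2.22 ± 0.26) and *Socs1* (1.71 ± 0.48). Altogether 13 of 15 genes were detected.

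Of 13 ligand genes of the 4 systems, 9 were detected and 4 not. All 3 TGFb genes were detected, *Tgfb3* at 1.95, 1.75 and 2.24, *Tgfb2* at -0.32, -0.39 and -0.03 and *Tgfb1* at -0.39, -1.37 and -0.36. *Il11* was at 1.68, -0.47 and 1.46, lower on control 6. *Il6* was dim but above background on all 3 arrays with both probes (-3.27, -2.78 and -2.77), and *Tnf* dimmer still with 1 of 2 probes (-4.87, -3.72 and -4.80). *Il1a*, *Il1b*, *Osm* and *Lif* were not detected. For these the arrays give only an upper bound, since the dimmest signal that was well above background lay at -5.72, -5.58 and -4.99 on controls 1, 6 and 11.

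**Figure D3:**
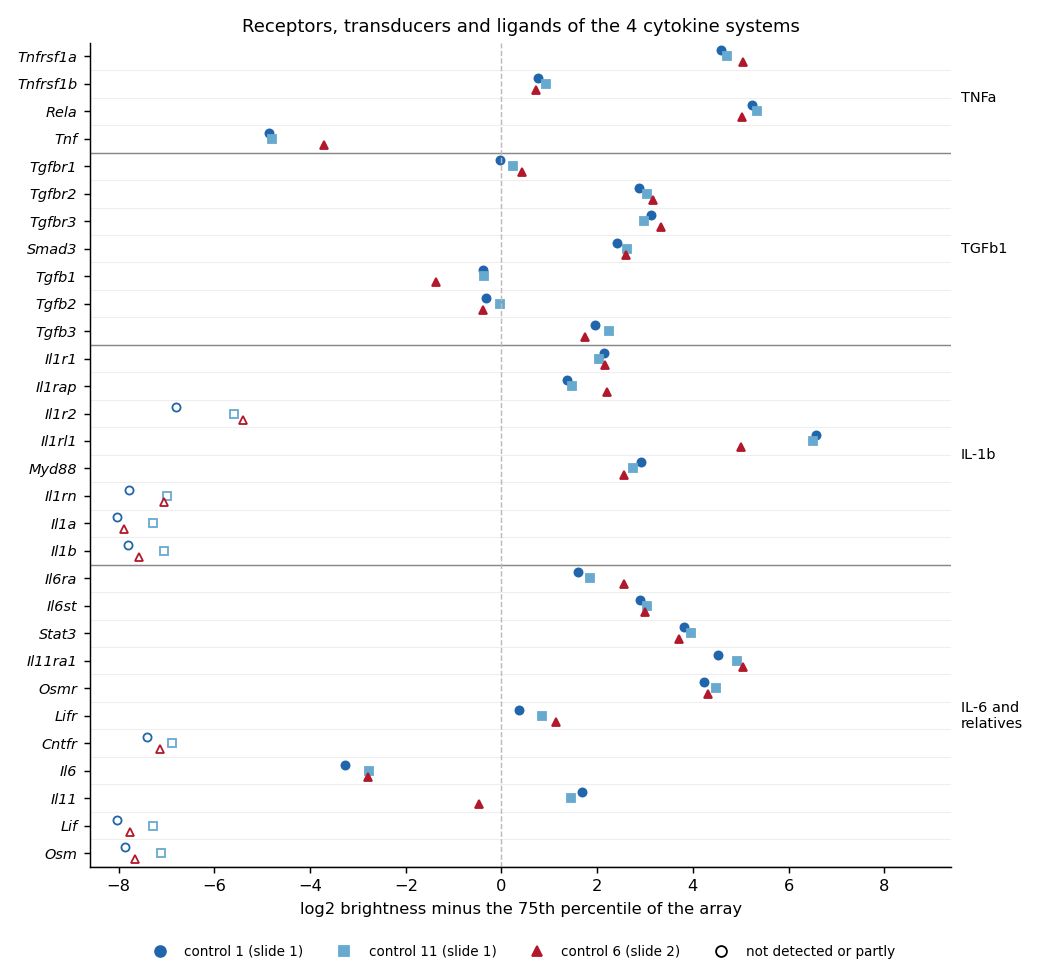
Log2 brightness minus the 75th percentile (x axis) of receptor, transducer and ligand genes of the TNFa, TGFb1, IL-1b and IL-6 systems (y axis) on controls 1, 6 and 11, 1 symbol per array, filled where detected and open where not or partly. The signalling receptor chains are filled throughout, whereas *Il1a*, *Il1b*, *Il1rn*, *Lif*, *Osm* and *Cntfr* are open and lie near -7 to -8.

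Receptors for other signals were mixed. Of 26 growth factor receptors, 19 were detected (73.1%, beside 54.4% of all named genes) and 7 not. *Axl*, a receptor tyrosine kinase for Gas6, was the brightest at 6.64, 5.86 and 6.71. *Fgfr1* (3.46, 3.71 and 3.62), *Pdgfrb* (3.20, 3.45 and 3.26) and *Pdgfra* (2.80, 3.23 and 3.01), the receptors for the mitogens FGF and PDGF, were detected with each of their probes. *Egfr* (0.49 ± 0.59), *Met* (1.43 ± 0.16) and *Igf1r* (1.78 ± 0.28) were detected as well. *Kit*, *Erbb3*, *Erbb4*, *Ret*, *Ntrk3* and *Fgfr4* were among those not detected. All interferon receptor chains of types I and II were detected (*Ifnar1*, *Ifnar2*, *Ifngr1*, *Ifngr2*), but the type III chain *Ifnlr1* was not.

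Sensors of microbial products had 13 of 19 members detected (68.4%, beside 54.4% of all named genes). When every probe of a gene had to be above background, 9 of 19 passed, beside 11401 of 23451 named genes. The cytosolic RNA sensor *Ddx58* (RIG-I) was at 3.20, 3.19 and 3.99, the DNA sensor *Cgas* at 3.08, 2.59 and 3.04 and its effector *Sting1* at 2.50, 2.36 and 2.74. *Ddx58* was highest on control 11. *Tlr2* (-0.38 ± 0.07), *Tlr4* (-1.15 ± 0.62, 1 of 2 probes) and its co-receptor *Cd14* (-1.55 ± 0.13) were detected, whereas *Tlr5*, *Tlr8*, *Tlr11* and *Tlr12* were not.

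Among 28 chemokines with a named probe, 13 were detected, 4 partly and 11 not (46.4%, beside 54.4% of all genes). The monocyte attractant *Ccl2* was at 6.00, 6.42 and 6.37, *Ccl7*, which shares its receptor, at 5.54, 5.53 and 5.92, and the homeostatic *Cxcl12* at 5.12, 4.91 and 4.98. These 3 stood apart in rank (345, 550 and 919) from the other detected chemokines, of which *Cxcl5* (1.35 ± 0.29) and *Cxcl1* (1.27 ± 0.07) came next. *Ccl3*, *Ccl4*, *Cxcl2*, *Cxcl3*, *Cxcl9* and *Cxcl13* were among those not detected.

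The gene set that the study follows as its polarization readout was almost fully above background before any treatment, with 25 of 26 genes detected. It held matrix and myofibroblast genes such as *Acta2* (6.90, 6.54 and 7.73) and *Tagln* (2.04, 1.07 and 2.73), and inflammatory genes such as *Ccl2* above, *C3* (0.30, 1.98 and 1.12) and *Sod2* (1.37, 1.19 and 1.26). *Acta2* and *Tagln* were both lowest on control 6 and highest on control 11. *Tfpi2* was the gene not detected. With every probe of a gene required, 22 of 26 were detected. Some members were dim: *Icam1* (-3.72 ± 0.43) and *Tnf* (-4.46 ± 0.65), each with 1 of 2 probes, and *Pcolce2* (-4.43 ± 0.86). The set was chosen by the study on arrays of this series, so its count is no independent measure.

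Of 19 fibroblast markers, 18 were detected, beside 54.4% of all named genes. The list was chosen with earlier results of these data known, so its count is no independent check of the label. Besides *S100a4* and the type I and III collagens, *Thy1* was at 7.02, 7.02 and 7.43, *Vim* (vimentin) at 6.78, 6.94 and 7.07 and *Gsn* (gelsolin) at 5.86, 6.25 and 5.97. *Ly6a* (Sca-1) was at 4.52, 5.55 and 5.57, below the others on control 1. *Fap* was dim (-3.34 ± 0.75, 1 of 2 probes), *Pi16*, a marker of adventitial fibroblasts, spread over -2.92, 0.08 and -1.52, and *Dpp4* was not detected with either of 2 probes. The summed linear brightness of the list was 1271 to 1569 times the 75th percentile across the controls.

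Mesenchymal transcription factors had 15 of 20 members detected. *Snai1* was at 4.43, 4.05 and 4.52, *Prrx2* at 3.83, 4.73 and 3.94, *Prrx1* at 4.32, 3.93 and 4.17 and *Twist2* at 3.86, 3.84 and 3.95. *Osr1* (3.11 ± 0.24), *Snai2* (2.84 ± 0.19), *Tbx18* (1.70 ± 0.13) and *Twist1* (0.60 ± 0.52) were detected too. *Wt1*, *Tcf21* and *Meox2* were above background on no array, and *Foxf1* was dim (-3.93 ± 0.06).

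Smooth muscle and myofibroblast genes had 8 of 13 detected (61.5%, beside 54.4% of all named genes), 2 partly and 3 not. *Acta2*, alpha smooth muscle actin, and *Cald1*, caldesmon (6.49, 6.40 and 6.40), were bright. *Actg2* (1.22, 3.06 and 1.90), *Myl9* (0.46, 0.80 and 1.92) and *Cnn1* (-0.30, -1.14 and 1.13, 1 of 2 probes) were detected with wide spread. The mature smooth muscle genes *Myh11* and *Des* and the master regulator *Myocd* were not detected. *Actg2* was brightest on control 6, while *Tagln*, *Cnn1* and *Acta2* were dimmest there.

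**Figure D4:**
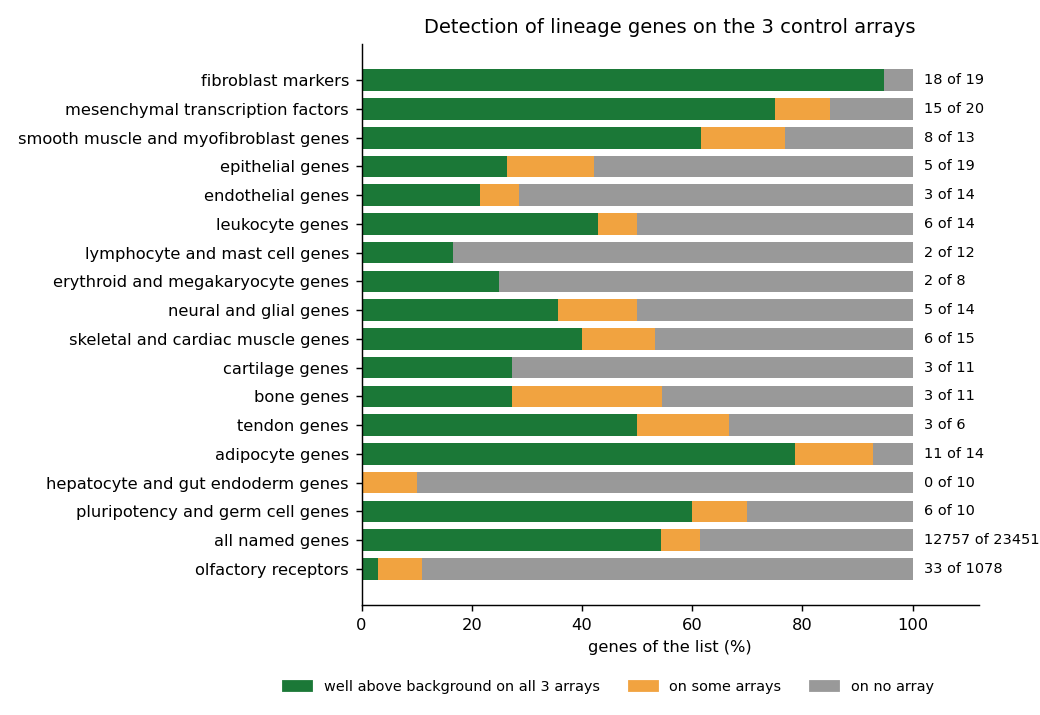
Share of the genes of each lineage list (y axis) that were detected, partly detected or not detected on the 3 control arrays (x axis, percent of the list), with the number detected beside each bar and all named genes and olfactory receptors for reference. Fibroblast markers (18 of 19) stand at the top and hepatocyte and gut endoderm genes (0 of 10) show none detected.

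In lists of other cell types, defining members were mostly not detected. Of 19 epithelial genes, 5 were detected. *Cdh1* (E-cadherin), *Epcam*, *Krt5*, *Krt8*, *Grhl2* and *Ocln* were above background on no array, whereas *Trp63*, the p63 factor of basal epithelia, was at 1.57, 2.39 and 1.84 with both probes detected, *Krt15* at 0.54, 0.46 and 0.75, *Krt13* at -1.36, -2.25 and -1.74 and *Krt19* at -2.38, -2.82 and -2.39. Of 14 endothelial genes, *Egfl7* (0.40 ± 0.29), *Flt1* (-1.70 ± 0.41) and *Pecam1* (-4.04 ± 0.36) were detected, while *Cdh5*, *Kdr*, *Tek*, *Tie1* and *Erg* were not.

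Leukocyte genes had 6 of 14 detected. The pan-leukocyte *Ptprc* (CD45), the myeloid master factor *Spi1*, *Adgre1* (F4/80), *Tyrobp* and *Lyz2* were not detected. *Itgam* (CD11b) nevertheless read 2.54, 3.74 and 2.60 on 1 probe, while the other probe of the gene was above background on no array. *Csf1r* (-1.36, -0.28 and -0.86), *Cd68* (-1.38, -1.58 and -1.38) and *S100a8* (-2.68, -0.43 and -2.24) were detected as well. The summed linear brightness of the 14 genes was 7.26 on control 1, 15.8 on control 6 and 7.66 on control 11, in units of the 75th percentile. Most of it was the single *Itgam* probe, and the other 13 genes summed to 1.43, 2.39 and 1.62. Of 12 lymphocyte and mast cell genes *Cd4* (-1.26 ± 0.74, 1 of 2 probes) and *Cd3e* (-1.53 ± 0.41) were detected, and *Ms4a1*, *Cd8a*, *Cpa3* and *Kit* were not. Of 8 erythroid and megakaryocyte genes *Hba-a1* (-2.07 ± 0.21) and *Epor* (-3.94 ± 0.49, 1 of 2 probes) were detected and *Gata1*, *Klf1* and *Hbb-b1* were not. Whether any such signal came from other cells was not tested.

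Neural and glial genes had 5 of 14 detected. *Snap25*, a synaptic protein, read 1.54, 3.29 and 1.55 on 1 of 2 probes, with the other on no array. *Nes* (-1.27 ± 0.17), *Tubb3* (-2.43 ± 0.51) and *Syp* (-0.45 ± 0.34) were above background, but *Sox2*, *Sox10*, *Olig2*, *Map2* and *Rbfox3* were not. The summed linear brightness of this list was 4.40, 11.7 and 4.53 on controls 1, 6 and 11, and 1.49, 1.88 and 1.60 without *Snap25*.

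Skeletal and cardiac muscle genes had 6 of 15 detected. The master regulators *Myod1*, *Myog*, *Myf5* and *Myf6* and the satellite cell factor *Pax7* were not detected, although the sarcomeric actins *Actc1* (1.18, 2.37 and 2.07) and *Acta1* (-0.93, 0.60 and 0.10), the troponin *Tnnt2* (1.23, -0.74 and 0.05) and *Pax3* (-1.43, -1.06 and -0.91) were. Actin genes are close in sequence, so the value of any single one is uncertain.

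Connective tissue lineages differed from one another. For cartilage, *Sox9*, its master regulator, was at 2.68, 1.60 and 2.17 and *Sox5* at 4.73, 4.51 and 4.92 with 1 of 3 probes, but *Sox6*, *Acan*, *Matn1*, *Matn3* and *Col9a1* were not detected, giving 3 of 11. The third detected gene was *Col2a1* (-4.18, 1.52 and -3.53), whose brightness differed by slide, as given below. For bone, *Runx2* was at -2.20, -2.59 and -2.01, *Sp7* (osterix) at -3.36, -1.64 and -2.67 and *Phex* at 0.13, -0.01 and -0.82, each missed by 1 or more of its probes. *Bglap* (osteocalcin), *Ibsp*, *Dmp1* and *Sost* were not detected, giving 3 of 11 as well. For tendon, *Mkx* was at -1.07, -1.52 and -1.25 and the early response gene *Egr1* at 3.68, 3.01 and 3.25, while *Scx* was partly detected and *Tnmd* not.

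Of 14 adipocyte genes, 11 were detected, 2 partly and 1 not. *Dlk1*, the preadipocyte factor Pref-1, was at 6.20, 6.35 and 6.38 and lipoprotein lipase, *Lpl*, at 5.10, 6.20 and 4.98. The regulators *Cebpb*, *Pparg* and *Cebpa* were at 4.23, 3.98 and 4.14, 3.91, 3.50 and 3.87 and 1.30, 2.28 and 1.58. Genes of the mature fat cell were detected as well: *Fabp4* was at 1.60, 1.72 and 1.85, *Cfd* (adipsin) at 0.10, 0.24 and 1.17, *Adipoq* (adiponectin) at -1.44, -0.85 and -0.52 and *Plin1* (perilipin) at -4.39, -3.85 and -3.20. *Ucp1*, of brown fat, was not detected.

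No hepatocyte or gut endoderm gene was detected, 0 of 10, with *Sox17* partly and *Alb*, *Afp*, *Ttr*, *Hnf4a* and *Foxa2* on no array. Of 10 pluripotency and germ cell genes, 6 were detected at low brightness, beside 54.4% of all named genes, and 3 passed when every probe of a gene was required. They were *Tdgf1* (-0.47, 1.57 and -0.43, 1 of 5 probes), *Dppa5a* (-1.83 ± 0.53), *Nanog* (-1.88 ± 0.67, 1 of 2 probes), *Pou5f1* (-2.13 ± 0.30), *Lin28a* (-3.35 ± 0.83, 1 of 2 probes) and *Sycp3* (-4.53 ± 0.17). *Zfp42*, *Dazl* and *Ddx4* were not. *Nanog* and *Pou5f1* have near-identical pseudogenes, so their values are uncertain.

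Positional identity along the body is carried by the Hox genes, homeobox factors that are laid out in 4 clusters in the order in which they act along the body axis. Of 39 Hox genes, 32 were detected (82.1%, beside 54.4% of all named genes), 1 partly and 6 not. *Hoxc9* was the brightest at 3.45, 3.66 and 3.52, then *Hoxc6* (3.01, 3.55 and 3.27), *Hoxb7* (2.98, 2.71 and 3.06) and *Hoxb9* (2.43, 2.43 and 2.60). These genes varied little between arrays, and the median SD of the detected Hox genes was 0.18 log2 units. All 9 *Hoxc* genes were detected, up to the most posterior, *Hoxc13* (1.18, 1.52 and 1.34), and 9 of 10 *Hoxb* genes, *Hoxb1* being the exception. In the *Hoxa* cluster 10 of 11 were detected, *Hoxa13* not. The *Hoxd* cluster was detected for *Hoxd3*, *Hoxd4*, *Hoxd8* and *Hoxd9* but not beyond: *Hoxd10* was partly detected, and *Hoxd11*, *Hoxd12* and *Hoxd13* not, and neither was *Hoxd1*.

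**Figure D5:**
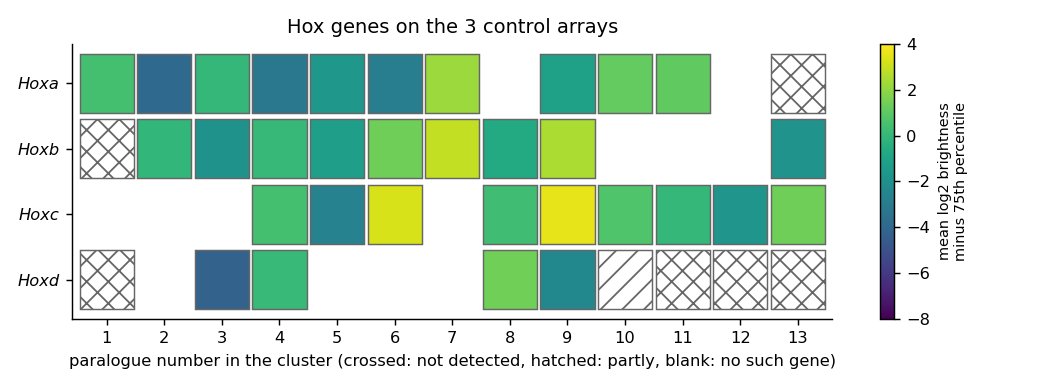
The 39 Hox genes by cluster (y axis) and paralogue number (x axis), coloured by mean log2 brightness minus the 75th percentile over the 3 controls where detected, crossed where not detected and hatched where partly. *Hoxc* genes are detected up to *Hoxc13*, whereas the *Hoxd* cluster is not detected from *Hoxd11* to *Hoxd13*.

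The Hox cofactors *Meis1* (2.86, 2.97 and 2.93) and *Pbx3* (2.12, 2.04 and 2.19) were detected. Of 28 regional factors, 15 were (53.6%), close to the 54.4% of all named genes. *Shox2* (2.42 ± 0.28), *Tbx15* (1.21 ± 0.24), *Tbx3* (1.53 ± 0.02) and *Tbx1* (1.82 ± 0.06) were above background, whereas the limb-type factors *Tbx4*, *Tbx5* and *Pitx1* and the heart and branchial arch factors *Hand1* and *Hand2* were not.

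Of the listed proliferation genes, 20 of 20 were detected, beside 54.4% of all named genes. *Birc5* (survivin) was at 6.54, 6.33 and 6.68, *Ccnd2* (cyclin D2) at 6.16, 6.18 and 6.09, *Cdk4* at 5.95, 5.80 and 6.26 and the proliferation antigen *Mki67* at 4.82, 4.65 and 4.73. *Myc* was lower on control 6 (1.76, 0.06 and 1.67). Growth arrest and tumour suppressor genes, some of which are commonly lost in immortalised mouse fibroblast lines, were detected in 13 of 14 cases. *Cdkn2a*, the locus of p16 and p19ARF, was at 4.34, 4.58 and 4.44 and its neighbour *Cdkn2b* at 2.61, 2.59 and 2.59, both with 2 of 2 probes. *Trp53* was at 2.23, 2.12 and 2.60, its target *Mdm2* at 5.84, 5.12 and 5.35 and *Cdkn1a* (p21) at 2.79, 2.47 and 2.64. Arrays report RNA, not whether these genes carry mutations. *Cdkn1c* was partly detected.

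Genes of the sex chromosomes were set against each other as a check of the line. None of 7 Y-linked genes (*Sry*, *Ddx3y*, *Eif2s3y*, *Kdm5d*, *Uty*, *Usp9y* and *Zfy1*) was detected, while *Xist*, the RNA of the inactive X chromosome, was above background on all 3 arrays (-1.37, -1.08 and -1.42). Of 21 named genes on the Y chromosome 3 were detected, among them *Sly*, a multicopy gene with relatives on the X chromosome, at 1.25, 1.27 and 1.22 with 1 of 8 probes.

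The 3 controls were close but not alike. Over 12754 genes whose representative probe was well above background on all of them, Pearson's r across genes was 0.995 between controls 1 and 11, 0.980 between 1 and 6, and 0.984 between 6 and 11; genes are not independent replicates. The median SD was 0.21 log2 units (10th to 90th percentile 0.08 to 0.53), and 1313 genes (10.3%) spanned over 1 log2 unit. Control 6 was the lowest array for 6948 genes (54.5%). Controls 1 and 11 were hybridised on 1 slide and control 6 on the other. The label numbers run in 3 sets (1 to 5, 6 to 10 and 11 to 15) that hold each group once, and control 6 is also the only control of its set, so on the controls alone slide and set cannot be told apart.

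The difference between the slides was therefore tested within groups over all 15 arrays with limma. Of 29256 probes tested, 10377 (35.5%) differed at a q below 0.05, 4736 of them brighter and 5641 dimmer on the second slide. Among the genes described above, the representative probe differed for 25 of 101 tested matrix genes, 18 of 54 receptor and transducer genes of the 4 cytokines, 27 of 105 lineage genes, 7 of 46 positional genes and 15 of 40 other receptor genes (37.5%). Of the receptor chains, *Tnfrsf1a* (0.27 ± 0.08, SE, limma q = 0.0174) and *Il6st* (-0.30 ± 0.11, limma q = 0.0497) differed by slide, while *Tnfrsf1b*, *Tgfbr1*, *Tgfbr2*, *Tgfbr3*, *Il1r1*, *Il1rap* and *Il6ra* did not pass. With the set of label numbers as a further term, *Tnfrsf1b* passed too (-0.14 ± 0.04, limma q = 0.0162). The single-probe signals of *Itgam* (1.08 ± 0.05, limma q = 3.26e-08) and *Snap25* (1.36 ± 0.09, limma q = 4.81e-07) were brighter on the second slide. Levels of genes that differ by slide depend on how many arrays of each slide enter the mean.

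The 8 genes with the widest range over the controls were all brightest on control 6. *Col2a1* led with -4.18, 1.52 and -3.53, and on the second slide it was brighter by 4.17 ± 0.36 (SE) log2 units over the 15 arrays (limma q = 4.09e-06). *Ptma-ps2*, a prothymosin pseudogene, read -2.11, 1.98 and -2.73 (slide difference 4.73, limma q = 2.55e-10) and *Serpinb6d*, a serine protease inhibitor, -4.09, -0.62 and -4.67 (3.87, limma q = 1.24e-08). *Oxsm*, *Psmg2* and *Ppp5c* behaved likewise, with slide differences of 2.93, 3.73 and 2.79. *Clec3b* (tetranectin, -4.67, -0.96 and -3.17) and *Cyp2f2* (a cytochrome, -3.10, 0.51 and -2.37) were as far apart on the controls, but their slide difference over all arrays was 0.61 ± 0.59 and 0.41 ± 0.76 (limma q = 0.458 and 0.72). A p that misses the threshold does not show that the slides gave equal values. With the set as a further term the slide difference was 4.18 ± 0.12 for *Col2a1*, 0.71 ± 0.43 for *Clec3b* and 0.63 ± 0.37 for *Cyp2f2*. For *Col2a1*, *Ptma-ps2*, *Serpinb6d*, *Oxsm*, *Psmg2* and *Ppp5c*, what in the slides differed was not tested.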

How the data were processed

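Total RNA of untreated MEFs was labelled with Cy3 and hybridised to 1-colour Agilent mouse arrays. The authors scanned the arrays and deposited, per the file headers, the Agilent Feature Extraction (version 10.7.3.1) intensity of each spot (gProcessedSignal), already background-subtracted by the software, with its marks of signal over background. The deposited series table holds the same intensity values and was not used further.

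Here, spots of a probe were averaged on the log2 scale without outlier spots, and the log2 of the array's 75th percentile over non-control spots was subtracted. A probe was well above background where at least 0.5 of its spots carried that mark, and a gene was represented by its brightest probe over the controls. Of 56605 probes, 33767 were named through a RefSeq accession (GRCm38.p6 table), giving 23462 genes, 23451 with values on all 3 controls. The array follows an older assembly than that table, so only promoter positions are given. Files held no mean signal, so normexp was run on the median signal.

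Genes named were the 25 brightest, the up to 5 brightest detected and the defining members of each of 44 lists, members breaking a list's pattern, and the 8 of widest range. Some genes that this rule names are not reported here. Lists and members were chosen with earlier results of these data known. No treatment was compared. The slide was tested with limma 3.58.1 (R 4.3.3; group and slide as terms, 15 arrays, probes above background on all arrays of 1 group or more, Benjamini-Hochberg q under 0.05, two-sided). A further fit, chosen after seeing the data, added the set of label numbers as a term. Checked on simulated data with 29256 probes, the fit without the set recovered 95 of 100 slide shifts of 1 log2 unit. It recovered 100 of 100 shifts of 2, with 11 false calls. The simulated noise was independent and equal for all probes, with no group or set differences. The fit with the set was not checked in this way.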

Additional observations from a re-analysis of the deposited data

How the results depend on the processing

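The number of named genes detected (12757) was 12762 with all spots kept, 12751 with the brightest probe over 15 arrays, 13382 when 2 of 3 arrays sufficed, 14786 with the software's weaker mark of positive and significant signal, and 12806 to 13287 without 1 control. It was 11401 when every named probe of a gene had to be above background, a setting chosen after seeing the data. Of the 25 brightest genes, 21 to 25 stayed among the 25 under every scaling and correction tried, 21 with normexp, and 23 without any 1 control. Subtracting the array median instead kept 25, but it shifts all genes of an array alike and could not change the ranks. Slide calls (10377) ran from 8933 without the filter on dim probes to 11462 after quantile normalization, and from 9035 to 10106 without 1 control. Of 44 lists, 6 moved by over 1.5 times with the weaker mark (bone, endothelial, epithelial, hepatocyte, lymphocyte and neural genes, the neural list from 5 to 10) and 6 when every probe was required (bone, erythroid, integrin, lymphocyte, neural and pluripotency genes, the bone list from 3 to 0). The hepatocyte list went from 0 to 1 detected without control 1 or with 2 of 3 arrays. Of 20 levels tracked, none moved by over 1 SD after quantile normalization, and 5 did with normexp (*Col1a2*, *Fn1*, *Il1r1*, *Il6st* and *Tnfrsf1b*). None moved so without 1 control, but the mean of 2 arrays cannot lie over 1 SD from that of 3. That setting therefore tests nothing for these levels: *Col2a1* went from -2.06 to -3.855 without control 6. Signal over background limits the lower end, where genes that were not detected have no order. The groups share no replicate number, but the label numbers run in 3 sets of 5 that hold each group once, a pairing the labels do not state. With the set as a replicate block, chosen after seeing the data, the slide calls were 14676, and 10341 of the 10377 remained called in the same direction.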

Other observations

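Among long non-coding RNAs, 528 of 3035 were detected. *Gm20751* was the brightest at 6.58, 7.06 and 6.87 on controls 1, 6 and 11, followed by *Snhg8* (7.01, 6.68 and 6.80), a host gene of small nucleolar RNAs. *1110038B12Rik* (mean 5.49), *Norad* (mean 5.37, 4 of 4 probes), a non-coding RNA induced by DNA damage, and *AA536875* (mean 5.36) came next. Small RNA classes with a probe were detected throughout on few genes: 11 of 11 small nucleolar RNAs and 7 of 7 small nuclear RNAs.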
